A study of Mus musculus with 4 samples.

Results

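The genes described here encode 10 members of the BCL2 family, the proteins that decide at the mitochondrial outer membrane whether a cell survives or dies. They were taken by symbol from the deposited table, not by their values: the antiapoptotic genes Bcl2, Bcl2l1, Mcl1 and Bcl2a1b, and the proapoptotic genes Bcl2l11, Bax, Bak1, Bid, Bbc3 and Pmaip1. All 10 were found among the 35798 genes the table names, and all 10 were among the 13822 genes that passed edgeR's filter on low counts and were tested.

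The data come from Ly49H+ NK cells, the natural killer subset whose activating receptor recognises a protein of murine cytomegalovirus (MCMV). Donor cells of wild-type mice (CD45.1) and of TNFR2 KO mice (CD45.2), which lack the TNF receptor encoded by Tnfrsf1b, were placed together in NSG mice, which were infected with MCMV one day later. Ly49H+ cells were sorted from spleen by CD45 allele on D3.5 and sequenced as 2 wild-type and 2 TNFR2 KO libraries, each from the pooled spleens of 3 hosts, and per the labels same-numbered libraries of both genotypes came from the same pool. Both groups therefore shared the host, the transfer, the infection and the day. The KO is present in every cell of the donor, and genotype, CD45 allele and sort gate cannot be told apart. NSG mice lack T, B and NK cells of their own, keep myeloid cells, and carry the CD45.1 allele of the NOD background. The duplicates belong to a single experiment, and the sources do not make clear whether the numbers mark separate pools, so p-values measure only the spread between these libraries, which may be technical.

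In healthy cells, antiapoptotic members hold the effectors Bax and Bak1 in check. BH3-only members such as Bcl2l11 (BIM), Bbc3 (PUMA), Pmaip1 (NOXA) and Bid relay stress signals by binding the antiapoptotic proteins or by activating the effectors, which then open the mitochondrial membrane and release cytochrome c. In NK cells, interleukin-15 signalling is known to sustain Mcl1 and Bcl2, and Mcl1 is needed for their survival.

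Libraries held 32713256 to 39543650 counts. Values are CPM, counts scaled to library size, here after TMM scaling, and differences are log2 fold changes (KO over wild-type) with the standard error (SE) of edgeR's quasi-likelihood test, whose p-values were adjusted over all 13822 genes. Tnfrsf1b, the targeted gene, stood at 264.7 and 268.6 CPM in wild-type cells and at 55.1 and 58.6 CPM in KO cells. Of 19 NK markers in the table, 17 were higher and 1 lower in TNFR2 KO, with a summed level of 17990 to 18040 CPM in wild-type and 33090 to 33470 CPM in TNFR2 KO. Of 27 macrophage or monocyte markers, 26 were lower, and their sum was 4126 to 4195 CPM in wild-type and 1187 to 1205 CPM in TNFR2 KO. No marker of either list was at 0. These levels moved with genotype, and their part in the differences of the members was not tested; in bulk RNA fewer cells of a type cannot be told apart from less RNA per cell.

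Among the 10 members, Bcl2, Bcl2l11 and Bbc3 were higher in the TNFR2 KO libraries at an adjusted p under 0.05 with TMM scaling. By the same rule Bcl2a1b, Pmaip1 and Bak1 were lower, and Mcl1, Bcl2l1, Bax and Bid passed no test. Levels given for wild-type or KO cells are those of whole libraries, whose cell type markers differed as given above. Scaling on NK lineage genes instead turned the direction of Bbc3, Bcl2l1, Bax and Bid. That scale moved the median of all genes from -0.003 to -0.51, and the log2 fold change of every member was lower on it. With TMM scaling 6 of 10 members were called, where 50.4% of all genes were called by the same rule, so the share was close to the background. By direction, 3 of 10 were higher against 24.2% of all genes, and 3 of 10 lower against 26.2%. With the study's additional threshold of an absolute log2 fold change over 1, 0 of the 10 members were called (edgeR and DESeq2), against 13.3% of all genes (11.8% lower and 1.56% higher). At an unadjusted p under 0.05, edgeR counted 6 members, against 55.7% of all genes. The median log2 fold change was 0.03 over the members and -0.003 over all genes tested. For 8 of 10 members the duplicates of one genotype did not overlap those of the other, against 74% of all genes.

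**Figure D1:**
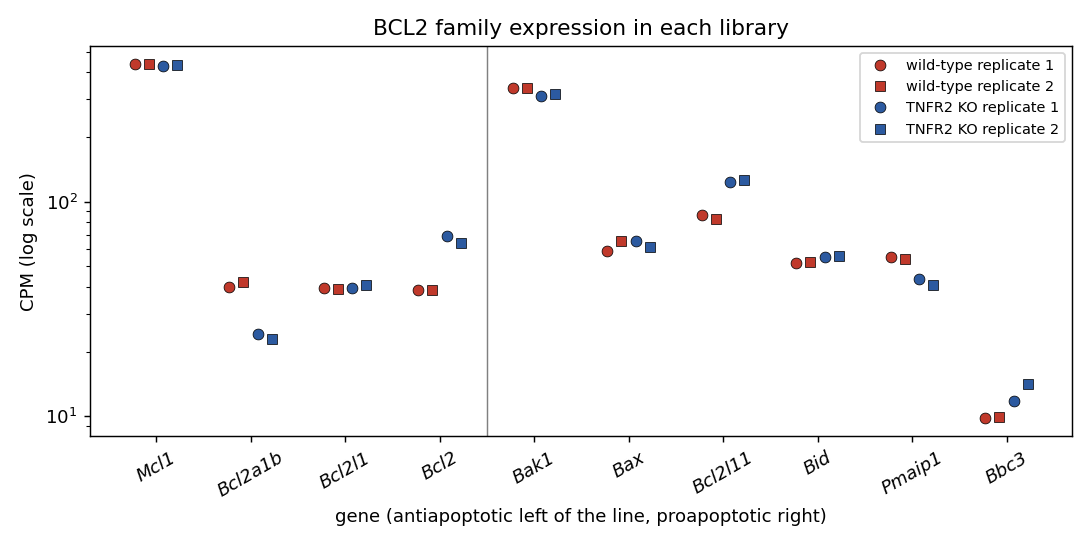
CPM on a log scale (vertical axis) of each member (horizontal axis) in the 2 wild-type libraries (red) and the 2 TNFR2 KO libraries (blue), circles for replicate 1 and squares for replicate 2, antiapoptotic genes left of the line. Bcl2 lies between 64.4 and 69.4 CPM in TNFR2 KO, above both wild-type libraries at 38.6 and 38.7 CPM, while Mcl1 and Bak1 are the highest of each side in all 4 libraries.

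Bcl2 encodes the founding antiapoptotic protein of the family, and its gene lies at chr1:106538178-106714274 (GRCm38, minus strand). Wild-type cells had 38.7 and 38.6 CPM of it and KO cells 69.4 and 64.4 CPM. Both KO libraries were thus well above both wild-type ones. The log2 fold change of 0.79 (SE 0.0493, edgeR adjusted p = 4.56e-08), a 1.73-fold higher level, was the most positive among the members. Without each library in turn it stayed between 0.75 and 0.85. With scaling on NK lineage genes, a scale on which the median of all genes fell to -0.51, Bcl2 was still higher, at 0.29 (edgeR adjusted p = 0.000152). The deposited counts of Bcl2 were not whole numbers, and 5.49% of its 31-base stretches, the unit in which Kallisto matches reads, also occur in D630008O14Rik on the opposite strand.

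Bcl2l11 encodes BIM, a BH3-only protein that binds all antiapoptotic members, and lies at chr2:128126038-128162547 (plus strand). Its level was 87.04 and 82.9 CPM in wild-type cells against 123.6 and 126.5 CPM in KO cells. The groups did not overlap, and the difference was many times the gap between duplicates. The log2 fold change was 0.56 (SE 0.0366, edgeR adjusted p = 7.85e-08), a 1.47-fold higher level, and it was 0.53 to 0.60 without each library in turn. Scaling on NK lineage genes ended this call, at 0.05 (edgeR adjusted p = 0.207). The antiapoptotic gene Bcl2 and its proapoptotic antagonist Bcl2l11 were thus the members with the most positive differences on the TMM scale.

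As Bcl2 and Bcl2l11 were higher together, the sequence around their annotated starts is shown (RefSeq, GRCm38.p6; 250 bases before and 50 after the start, for Bcl2l11 the first of its listed starts). Bcl2 lies in chr1:106714241-106714540 on the minus strand and Bcl2l11 in chr2:128125788-128126087 on the plus strand. Capitals mark matches, on either strand, to GGGNNNNNCC, a loose form of the site of NF-kB, the factor TNFR2 signals to, and to TGTTTAC, the core of FOXO sites. Matches can overlap.
Bcl2: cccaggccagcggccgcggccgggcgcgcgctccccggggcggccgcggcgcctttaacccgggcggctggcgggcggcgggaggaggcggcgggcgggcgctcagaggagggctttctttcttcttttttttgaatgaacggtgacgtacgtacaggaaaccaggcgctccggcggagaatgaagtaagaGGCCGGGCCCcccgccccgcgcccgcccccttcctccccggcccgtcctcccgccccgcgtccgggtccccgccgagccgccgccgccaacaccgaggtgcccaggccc
Bcl2l11: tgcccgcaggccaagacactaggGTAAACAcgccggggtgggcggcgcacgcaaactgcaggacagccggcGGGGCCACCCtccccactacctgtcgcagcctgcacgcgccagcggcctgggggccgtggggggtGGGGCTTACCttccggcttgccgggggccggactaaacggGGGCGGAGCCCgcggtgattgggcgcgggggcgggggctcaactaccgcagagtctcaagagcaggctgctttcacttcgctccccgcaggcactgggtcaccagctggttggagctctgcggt
The NF-kB letters occurred once in the Bcl2 window and 4 times in the Bcl2l11 window, and 50.8% of the 32851 RefSeq windows of this length hold them, so their presence is common. The FOXO letters occurred once in the Bcl2l11 window and not in that of Bcl2, and 3.65% of all windows hold them. Over the 9 members whose windows were read, all but Pmaip1, 14 windows were listed. Of these, 12 held the NF-kB letters and 2 the FOXO letters, 1 of Bcl2l11 and 1 of Bbc3. The windows are not all separate, as 2 of those of Bbc3 overlap and share matches. The fixed letters of the NF-kB form are all G or C, which made up 46.7% to 78.0% of the bases of the 14 windows. The part of this base content in the matches was not tested. The letters TTCNNNGAA of STAT sites, present in 8.3% of all windows, were found in 0 of the 14. Such matches describe the letters of these windows and do not show that a factor binds there.

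Bcl2a1b encodes a copy of A1, a short-lived antiapoptotic protein known as an NF-kB target and abundant in activated myeloid cells and lymphocytes. It lies at chr9:89199209-89207827 (plus strand). Its level was 40.1 and 42.4 CPM in wild-type cells against 24.1 and 22.9 CPM in KO cells, with no overlap between the groups. The log2 fold change was -0.81 (SE 0.0570, edgeR adjusted p = 1.52e-07), so that the wild-type level was 1.75-fold that in TNFR2 KO. This was the most negative value among the members, and it stayed between -0.84 and -0.76 without each library in turn. Scaled on NK lineage genes, where the median of all genes was -0.51, Bcl2a1b was at -1.32 (edgeR adjusted p = 6.52e-10), past a log2 fold change of 1.

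The mouse genome holds several near-identical copies of this gene, and 88.8% of the 31-base stretches of Bcl2a1b occur in other genes, and 72.4% of all its stretches occur in Bcl2a1d. The count of a single copy is therefore uncertain. The copies are shown over the first 100 coding bases, all in exon 1, as this stretch holds most of the bases at which they differ. Capitals mark the 7 positions in this stretch, of 12 in the 516 coding bases, at which the copies are not all alike. Bcl2a1a lies in chr9:88957051-88957150 and Bcl2a1b in chr9:89199360-89199459 on the plus strand, and Bcl2a1d in chr9:88731620-88731719 on the minus strand (GENCODE M21, GRCm38).
Bcl2a1a: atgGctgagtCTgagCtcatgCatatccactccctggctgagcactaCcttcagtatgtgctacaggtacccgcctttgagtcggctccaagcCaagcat
Bcl2a1b: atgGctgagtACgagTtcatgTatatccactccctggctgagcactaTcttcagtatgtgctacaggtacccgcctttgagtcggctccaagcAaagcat
Bcl2a1d: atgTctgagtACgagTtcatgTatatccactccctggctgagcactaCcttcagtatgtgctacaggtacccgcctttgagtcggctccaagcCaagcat
Over the coding bases Bcl2a1b was 98.8% identical to Bcl2a1d, with 6 differences, and 97.9% identical to Bcl2a1a, with 11.

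Bcl2a1d measured 24.8 and 26.7 CPM in wild-type cells against 12.7 and 15.6 CPM in KO cells, and its log2 fold change was -0.87 (SE 0.0904, edgeR adjusted p = 5.94e-06). Bcl2a1a went from 11.6 and 11.5 CPM to 1.16 and 0.968 CPM, a log2 fold change of -3.42 (SE 0.160, edgeR adjusted p = 3.10e-09). Both were lower in every KO library, and Bcl2a1a by a far larger factor. Within a library, which needs no scaling, the ratio of Bcl2a1d to Bcl2a1b counts was 0.619 and 0.629 in wild-type and 0.530 and 0.682 in TNFR2 KO, so these groups overlapped. The ratio of Bcl2a1a to Bcl2a1b was 0.288 and 0.270 in wild-type and 0.0486 and 0.0427 in TNFR2 KO (exact permutation test, two-sided p = 0.333, the smallest that 2 against 2 allow). These ratios were chosen after the values were seen. With the reads of all 3 copies summed, which sidesteps their division between these 3, the level was 76.5 and 80.5 CPM in wild-type cells against 37.98 and 39.5 CPM in KO cells. Any reads assigned to Gm29094, whose exons overlap those of Bcl2a1b on the same strand, are not in this sum. The summed difference of -1.02 (SE 0.0460, edgeR adjusted p = 2.17e-09) lay at the study's fold change threshold, with a 95% interval from -1.12 to -0.92, and it was -0.98 both without wild-type replicate 2 and without TNFR2 KO replicate 1. The macrophage or monocyte markers, whose sum was lower in both KO libraries, had a median log2 fold change of -3.04 and a range from -3.67 to 0.78. The 17 neutrophil precursor markers, all lower, had a median of -2.28. Their part in the Bcl2a1 result was not tested.

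**Figure D2:**
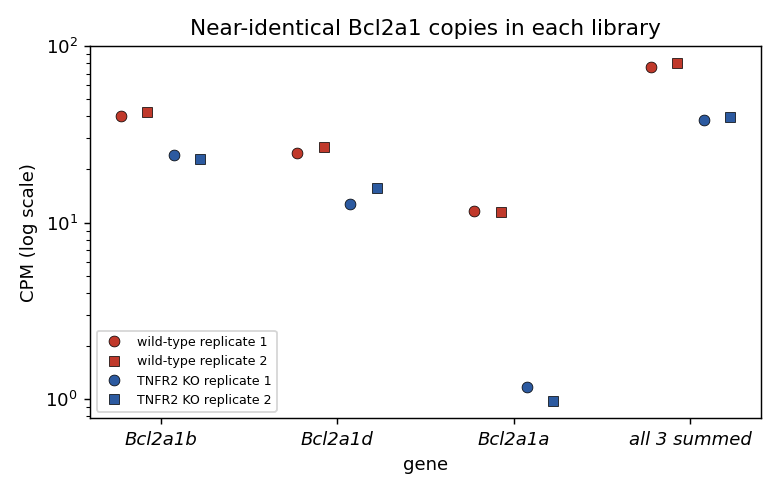
CPM on a log scale (vertical axis) of 3 near-identical Bcl2a1 copies and of their sum (horizontal axis) in 2 wild-type (red) and 2 TNFR2 KO (blue) libraries. Bcl2a1a lies at 11.5 and 11.6 CPM in wild-type and near 1 CPM in TNFR2 KO, while Bcl2a1b and Bcl2a1d differ by less.

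Mcl1, which encodes a short-lived antiapoptotic protein and lies at chr3:95658788-95663176 (plus strand), was the most abundant antiapoptotic member. It measured 438.9 and 437.1 CPM in wild-type cells against 429.9 and 430.4 CPM in KO cells. Although the groups did not overlap, the difference was only -0.03 with a 95% interval from -0.08 to 0.03 (edgeR adjusted p = 0.390). With library size alone as scaling it was -0.09 (edgeR adjusted p = 0.00906), and with scaling on NK lineage genes -0.53 (edgeR adjusted p = 9.03e-10), each past the test. With only genes of at least 10 CPM kept it was -0.06 (edgeR adjusted p = 0.0405).

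Bcl2l1, whose main product is the antiapoptotic protein BCL-XL, lies at chr2:152780668-152831728 (minus strand). Its level was 39.6 and 39.01 CPM in wild-type cells against 39.4 and 40.8 CPM in KO cells. The groups overlapped, and the difference of 0.03 had a 95% interval from -0.08 to 0.14 (edgeR adjusted p = 0.667), which turned to -0.03 with library size alone and, scaled on NK lineage genes, to -0.48 (edgeR adjusted p = 1.72e-06). Counts summed per gene do not separate the long and short forms of Bcl2l1, nor the isoforms of Mcl1 or Bcl2l11.

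The effectors Bax and Bak1 form the pores in the mitochondrial membrane. Bak1, at chr17:27019810-27029009 (minus strand), measured 337.9 and 337.2 CPM in wild-type cells against 311.7 and 317.0 CPM in KO cells. The groups did not overlap, and the small difference of -0.10 (SE 0.0251) passed the test (edgeR adjusted p = 0.00461), staying between -0.11 and -0.08 without each library in turn. It was -0.16 with library size alone and, scaled on NK lineage genes, -0.61 (edgeR adjusted p = 4.62e-10). Bax, at chr7:45461697-45466898 (minus strand), measured 59.2 and 65.2 CPM in wild-type cells against 65.7 and 61.6 CPM in KO cells. Its groups overlapped, with a difference of 0.04 and a 95% interval from -0.08 to 0.15 (edgeR adjusted p = 0.617), and its sign turned under 5 of 12 alternatives, among them scaling on NK lineage genes (-0.47). Of the 31-base stretches of Bak1, 20.4% also occur in Ggnbp1 on the opposite strand, and of those of Bax 9.89% occur in Gm45808, which overlaps it. The libraries were stranded, but whether strand was used in assigning reads is not stated, so the share of such reads is uncertain.

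Pmaip1 encodes NOXA, a BH3-only protein that binds mainly MCL1. It measured 54.95 and 53.95 CPM in wild-type cells against 43.5 and 41.1 CPM in KO cells, and the groups did not overlap. The log2 fold change of -0.36 (SE 0.0479, edgeR adjusted p = 4.72e-05) remained between -0.40 and -0.32 without each library in turn, and was -0.87 when scaled on NK lineage genes (edgeR adjusted p = 5.42e-09). The wild-type level was 1.29-fold that in TNFR2 KO.

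Bbc3 encodes PUMA, a BH3-only protein induced by p53, and lies at chr7:16308393-16318205 (plus strand). It had the lowest counts of the members, 371 and 366 in wild-type and 455 and 452 in TNFR2 KO, or 9.78 and 9.93 CPM against 11.8 and 14.1 CPM. The KO libraries were both higher but lay further apart than the wild-type ones. Its log2 fold change of 0.39 (SE 0.110, edgeR adjusted p = 0.0113) lost the call without TNFR2 KO replicate 2 (0.26, edgeR adjusted p = 0.0931) and with DESeq2 (adjusted p = 0.0627). The direction turned with scaling on NK lineage genes, to -0.12 (edgeR adjusted p = 0.347).

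Bid, the BH3-only protein that caspase-8 cleaves and that links death receptors to mitochondria, is encoded at chr6:120891930-120916853 (minus strand). Its level was 51.7 and 52.3 CPM in wild-type cells against 55.1 and 55.6 CPM in KO cells. The groups did not overlap, but the difference of 0.09, with a 95% interval from -0.004 to 0.18, did not pass the test (edgeR adjusted p = 0.103), and it was -0.42 with scaling on NK lineage genes. Of its 31-base stretches 16.9% occur in Bcl2l13 on the opposite strand.

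**Figure D3:**
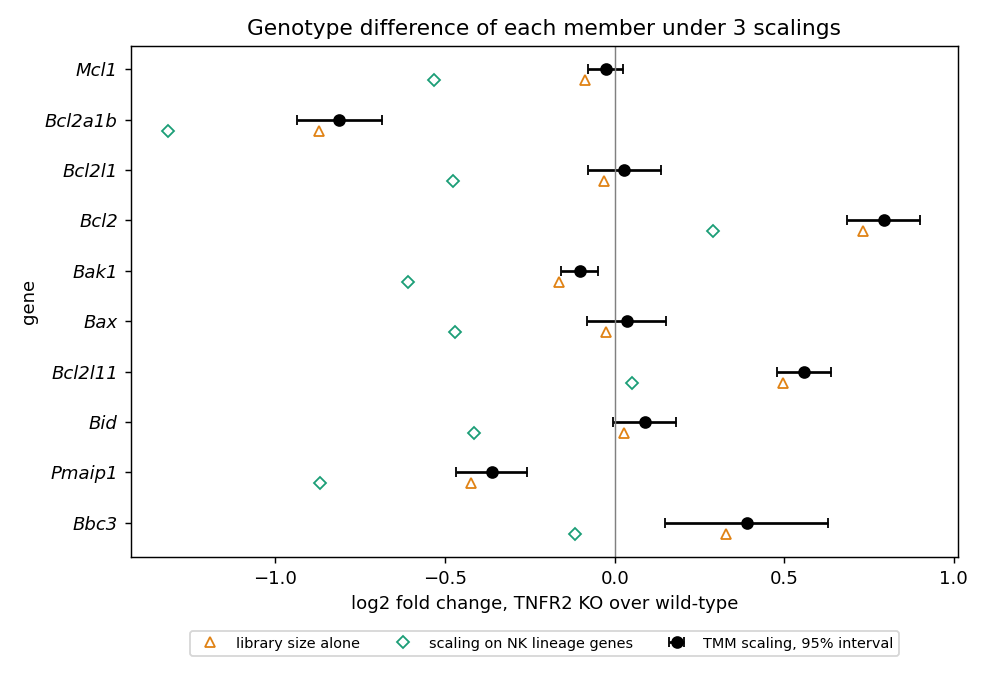
Log2 fold change, KO over wild-type (horizontal axis) for each member (vertical axis), as black points with 95% intervals after TMM scaling, orange triangles with library size alone and green diamonds with scaling on NK lineage genes. Bcl2 stays above 0 in all 3 and Bcl2a1b, Pmaip1, Bak1 and Mcl1 below 0, whereas Bcl2l11 falls to 0.05 on the NK scale and Bbc3, Bid, Bax and Bcl2l1 turn from above to below 0.

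Ratios of counts within a library do not depend on the scale between libraries. They can still differ with the cell content of a library, and the part of the marker levels given above was not tested. The ratio of Bcl2 to Bax, an antiapoptotic gene to an effector, was 0.654 and 0.592 in the wild-type libraries and 1.06 and 1.05 in the TNFR2 KO libraries. The ratio of Bcl2 to Bcl2l11 was 0.444 and 0.466 in wild-type and 0.561 and 0.509 in TNFR2 KO, and that of Mcl1 to Pmaip1 was 7.99 and 8.10 against 9.87 and 10.5. In all 3 the antiapoptotic partner was higher relative to its proapoptotic one in both KO libraries, by 1.69-fold, 1.18-fold and 1.26-fold. Other pairs went the other way: chosen after the values were seen, the ratio of Mcl1 to Bcl2l11 was 5.04 and 5.27 in wild-type and 3.48 and 3.40 in TNFR2 KO, and that of Bcl2l1 to Bcl2l11 was 0.455 and 0.470 against 0.319 and 0.323. The groups did not overlap in any of these 5 ratios, and the two-sided exact permutation test gave p = 0.333 for each, the smallest it can give with 2 against 2.

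**Figure D4:**
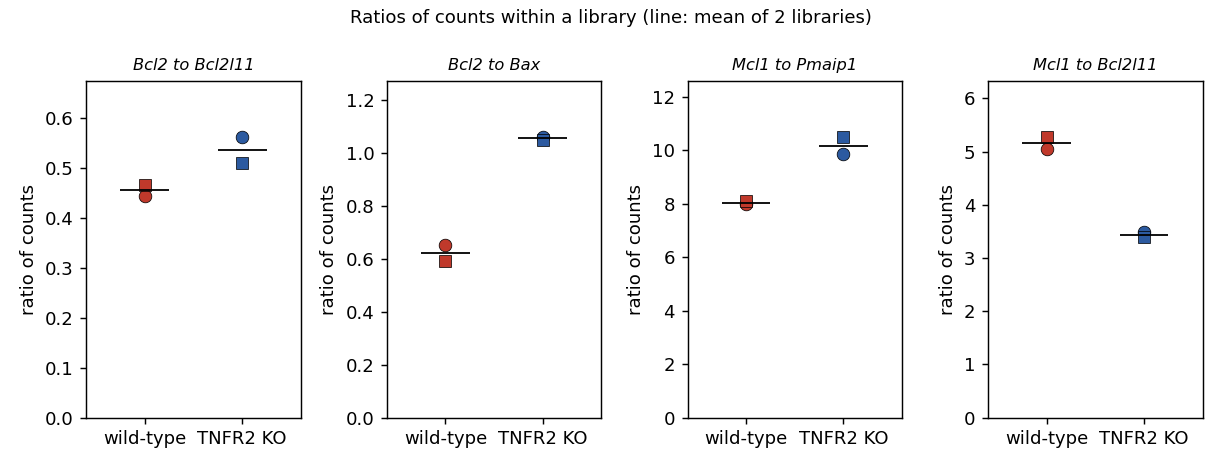
Ratio of the counts of 2 members within each library (vertical axes, from 0) for wild-type (red) and TNFR2 KO (blue), circles for replicate 1, squares for replicate 2 and lines for the mean of 2 libraries. Bcl2 to Bcl2l11, Bcl2 to Bax and Mcl1 to Pmaip1 are higher in TNFR2 KO and Mcl1 to Bcl2l11 is lower, with no overlap between groups.

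To compare levels between genes, CPM was divided by the length of the longest protein-coding transcript of each gene (GENCODE M21). On this per-kilobase scale Bak1 (141.6 and 141.3 CPM per kb) and Mcl1 (128.4 and 127.9 CPM per kb) led in wild-type, followed by Bax, Bcl2a1b, Bid, Pmaip1, Bcl2l11, Bcl2l1, Bbc3 and Bcl2. Bbc3 (5.39 and 5.47 CPM per kb) and Bcl2 (5.38 and 5.37 CPM per kb) closed the order and were nearly level, and each other pair of neighbours was separated in both libraries. In TNFR2 KO, Bcl2 (9.66 and 8.95 CPM per kb) stood above Bbc3 (6.48 and 7.78 CPM per kb), and Bcl2l1 and Pmaip1 overlapped. Using the median transcript length instead, Bcl2 was last in both genotypes and no longer level with Bbc3 in wild-type (mean 7.70 against 20.3 CPM per kb). Bcl2l11 and Bcl2l1 then stood ahead of Pmaip1 in wild-type. In TNFR2 KO, Mcl1 passed Bak1, Bcl2l11 rose to rank 4 and Bbc3 to rank 7, and Bcl2a1b fell to rank 6. Summed over the members, chosen after the values were seen, the antiapoptotic genes gave 198.3 and 200.3 CPM per kb in wild-type and 180.3 and 178.8 CPM per kb in TNFR2 KO, and the proapoptotic genes 261.8 to 266.2 and 262.1 to 262.5 CPM per kb. Bcl2a1b alone stood at 49.1 and 51.9 CPM per kb in wild-type against 29.5 and 28.0 CPM per kb in TNFR2 KO.

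Other genes of the family were read from a list of 22, of which 16 were tested. Of these, 5 were higher and 5 lower with TMM scaling, with a median log2 fold change of 0.05. For this and the following apoptosis lists, the shares over all genes on that scale were 24.2% higher and 26.2% lower. The scaling on NK lineage genes left 0 higher and 15 lower, where of all 13822 genes it called 383 higher and 10866 lower. Past both thresholds with TMM scaling were Bcl2a1a, described above, and 2 scarce genes. Bcl2l14 measured 2.11 and 1.90 CPM in wild-type cells against 0.879 and 0.562 CPM in KO cells (log2 fold change -1.46, edgeR adjusted p = 0.00188). Bik, a BH3-only gene, went from 0.578 ± 0.295 to 1.29 ± 0.211 CPM (SD, n = 2 each; 1.15, edgeR adjusted p = 0.0332) and lost its call with DESeq2 (adjusted p = 0.144), without wild-type replicate 1 (edgeR adjusted p = 0.242) and without TNFR2 KO replicate 2 (edgeR adjusted p = 0.117). Bcl2l10 and Bcl2a1c had 0 counts in every library. The most abundant genes of the list were Tmbim6, an inhibitor of Bax-induced death, which went from 748.7 ± 5.25 to 788.8 ± 13.7 CPM (SD, n = 2 each), and Bclaf1, at 169.6 ± 2.29 and 157.8 ± 3.89 CPM (SD, n = 2 each). Their differences of 0.08 and -0.10 had edgeR adjusted p of 0.0183 and 0.0142, and that of Tmbim6 became -0.43 when scaled on NK lineage genes. Both lost the call without wild-type replicate 1 (edgeR adjusted p = 0.0564 and 0.121) and without TNFR2 KO replicate 2 (0.0734 and 0.106). Tmbim6 lost it also with library size alone (edgeR adjusted p = 0.647) and with genes of at least 10 CPM (0.193), and Bclaf1 with DESeq2 (adjusted p = 0.0826).

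Downstream of the mitochondria, 16 genes of the apoptosome and caspases were tested, of which 4 were higher and 5 lower, with a median of 0.03. Birc5, the mitotic inhibitor of apoptosis survivin, differed by -0.08 (edgeR adjusted p = 0.0432), a call lost under 8 of 12 alternatives, each library left out among them. Htra2, a mitochondrial protease released in apoptosis and named after its values were seen, fell from 36.4 ± 2.07 to 19.3 ± 0.0997 CPM (SD, n = 2 each; -0.92, edgeR adjusted p = 9.40e-08), the most negative value of this list.

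Among 12 death receptor genes, only some of which reach the family through Bid, 2 were higher and 3 lower, with a median of -0.09. The most abundant were Casp8 and Cflar. Cflar, the inhibitor of caspase-8, differed by -0.11 (edgeR adjusted p = 0.0150), a call lost with DESeq2 (adjusted p = 0.0908), without wild-type replicate 1 (edgeR adjusted p = 0.191) and without TNFR2 KO replicate 2 (edgeR adjusted p = 0.0649). Casp8 differed by -0.002 (edgeR adjusted p = 0.969). Named after their values were seen, Fasl, the ligand NK cells use to kill through FAS, rose from 56.9 ± 1.17 to 102.7 ± 0.529 CPM (SD, n = 2 each; 0.85, edgeR adjusted p = 1.75e-09), and Tnfrsf1a, which encodes TNFR1, fell from 85.6 ± 0.308 to 57.8 ± 3.88 CPM (SD, n = 2 each; -0.57, edgeR adjusted p = 6.63e-07).

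Of 26 genes known to act on the family from upstream, 10 were higher and 8 lower, with a median of 0.03. Id2, a transcriptional regulator needed for NK cell development, rose from 498.7 ± 14.0 to 689.9 ± 10.2 CPM (SD, n = 2 each; 0.47, edgeR adjusted p = 1.92e-08), and Pim1, a survival kinase, differed by 0.15 (edgeR adjusted p = 0.000354). Scaling on NK lineage genes, which count Id2 among them, turned these to -0.04 and -0.35. Named after their values were seen, Pim2, a survival kinase induced by cytokines, rose from 133.3 ± 0.403 to 249.3 ± 4.17 CPM (SD, n = 2 each; 0.90, edgeR adjusted p = 7.47e-11), and Nfkb2 and Relb, the subunits of the noncanonical NF-kB pathway, fell by 0.59 and 0.51 on the log2 scale (edgeR adjusted p = 2.46e-08 and 1.32e-05). The other NF-kB subunits of the list, also named after their values were seen, did not all fall with TMM scaling. Rela differed by 0.18 (edgeR adjusted p = 0.00247), Rel by -0.14 (edgeR adjusted p = 0.0446) and Nfkb1 by 0.0007 (edgeR adjusted p = 0.983). Trp53, which encodes p53 and is likewise named after its values were seen, fell by 0.37 on the log2 scale (edgeR adjusted p = 1.65e-05). The differences of the genes named after their values were seen are those of the TMM scale. Scaling on NK lineage genes called 22 of the 26 genes lower and 1 higher.

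**Figure D5:**
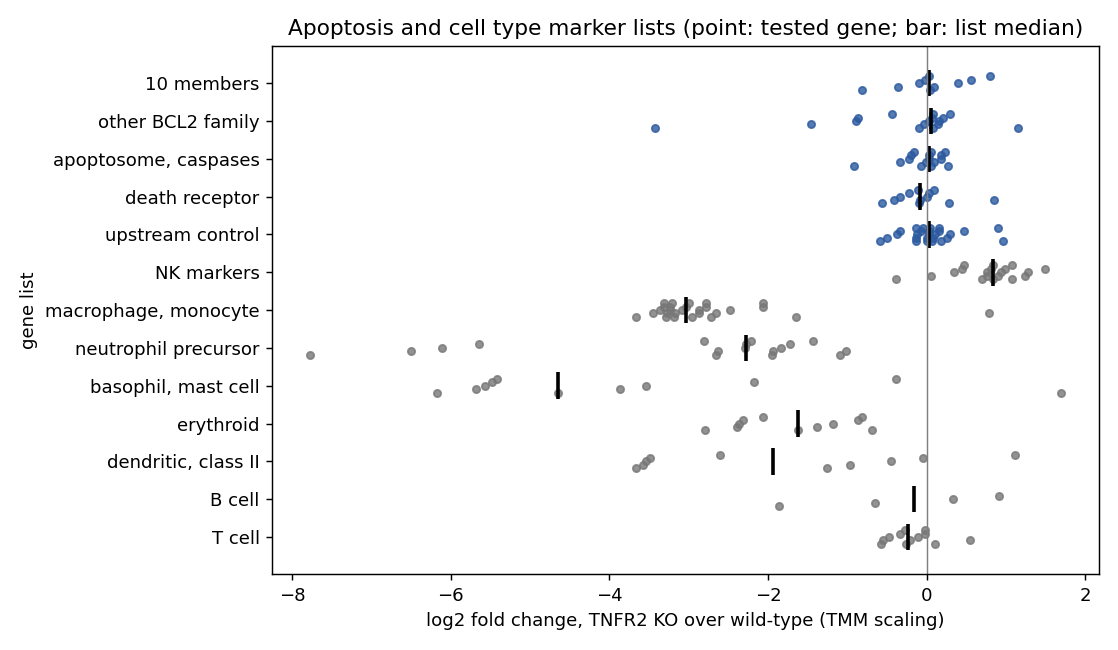
Log2 fold change, KO over wild-type, after TMM scaling (horizontal axis) of each tested gene (points) in the members, 4 lists of apoptosis genes (blue) and 8 lists of cell type markers (grey), with list medians as bars (vertical axis: lists). The 5 apoptosis lists have medians between -0.09 and 0.05, against 0.83 for NK markers and -3.04 for macrophage or monocyte markers, and scaling on NK lineage genes shifts the median of all genes to -0.51.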

How the data were processed

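The 4 libraries were poly-A selected, strand-specific and sequenced as paired ends. The authors trimmed reads with Trimmomatic 1.4, assigned them to mm10 transcripts with kallisto 0.46.1 and summed them per gene with Tximport, and they deposited these expected counts without scaling between libraries. Their transcript annotation was not stated. The authors tested with DESeq2. A row without a gene name (0.0559% to 0.0728% of counts) was left out. Counts were rounded, filtered with filterByExpr, scaled with TMM and tested with edgeR 4.0.16 (R 4.3.3), genotype as the only term, with Benjamini-Hochberg adjustment over all genes. The steps were tested on simulated counts. DESeq2 1.42.0 was an alternative, as were other scalings (including one on 46 NK lineage genes), other filters, the replicate block and each library left out in turn. The estimated biological coefficient of variation was 3.33%, and duplicates differed by more than sampling noise (mean chi-square per gene 3.29 and 3.49, where noise alone gives 1).

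Per the labels, same-numbered libraries came from the same pooled spleens, which pairs them; their deviations from the group means had a correlation of 0.0243 over genes. With 2 libraries a group, an exact permutation test cannot go below p = 0.333.

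The members, gene lists and tests were chosen with earlier results of these data known. Named genes are the 10 members, Tnfrsf1b, of each apoptosis list those past both thresholds and the 2 most abundant, the 2 most abundant markers of each list (given here by list), and the 3 genes most like the members with the most negative and most positive difference; others are marked where named, and 1 gene that the rule names is not reported here. Transcript lengths, positions and shared 31-base stretches come from GENCODE M21 on GRCm38, which stands in for the annotation the authors used. Promoters come from RefSeq (GRCm38.p6) and were read for 9 of the 10 members. For the members, windows on chromosome 18, where Pmaip1 lies, were left out. Protein sequences were not used here. Counts were read with pandas 2.3.3 (Python 3.11.15) for levels per length, and plots drawn with matplotlib 3.10.9.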

Additional observations from a re-analysis of the deposited data

How the results depend on the processing

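The counts of Bcl2a1b rest on reads shared between copies, those of Bbc3 on 366 to 455 reads a library, and with 2 libraries a group small differences depend on the scale. With the replicate block, which takes same-numbered libraries as 1 pool, 1830 genes passed both thresholds (1842 without it). No named gene changed its call and no count moved by over 1.5 times, but death receptor genes went from 3 to 4 lower and from 2 to 3 higher. Scaling on NK lineage genes moved the median of all genes to -0.51 and library size alone to -0.06, against -0.003; of all genes at an adjusted p under 0.05, 96.6% and 64.5% were then lower, against 52.0%.

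Scaling on NK lineage genes gave 2547 lower and 64 higher genes past both thresholds (1627 and 215 with TMM), and 10866 lower and 383 higher at an adjusted p under 0.05 (3624 and 3341). Of the members it called 7 lower, 1 of them (Bcl2a1b) past both thresholds, and 1 higher. It called 15 lower and 0 higher among other family genes, 16 and 0 among apoptosome and caspase genes, 11 and 1 among death receptor genes, and 22 and 1 among upstream genes. It turned Bcl2l1 (-0.48), Bax (-0.47), Bid (-0.42), Bbc3 (-0.12), Tmbim6 (-0.43), Id2 (-0.0368) and Pim1 (-0.35) below 0.

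Library size alone called 6 death receptor genes lower, and 2 apoptosome and 5 upstream genes higher; it turned Bcl2l1 (-0.0321) and Bax (-0.0253). Keeping genes of at least 10 CPM, which tests fewer genes, left 424 lower and 56 higher past both thresholds, 2 lower and 3 higher among other family genes and 5 death receptor genes lower, and turned Bcl2l1 (-0.0072) and Bax (-0.0004). DESeq2 called 2 apoptosome genes lower and 2 higher, and 5 upstream genes lower and 5 higher. Casp8, at -0.002, turned to 0.0032 with DESeq2 size factors, 0.0026 with DESeq2 as the test, 0.0035 without a filter and 0.0068 with upper-quartile scaling. Leaving out each library in turn, it lay between -0.0456 and 0.0520 and Bax between -0.0256 and 0.1159. The counts then ranged from 3 to 5 higher among other family genes, from 3 to 4 lower and 2 to 4 higher among apoptosome genes, and from 5 to 8 lower and 6 to 9 higher among upstream genes. Except where construction shows it, the cause was not tested.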

Other observations

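The remaining marker lists moved with genotype as follows, on the TMM scale. Of 11 basophil or mast cell markers, 9 were lower and 1 higher in KO cells, with a median log2 fold change of -4.64 and a summed level of 1282 to 1285 CPM in wild-type cells against 104.0 to 104.6 CPM. All 11 erythroid markers were lower, with a median of -1.63. Of 10 dendritic cell and class II genes tested, 5 were lower and 1 higher, with a median of -1.94. The 17 neutrophil precursor markers summed to 1049 to 1066 CPM in wild-type cells against 107.4 to 112.2 CPM. T cell markers moved less, with 7 lower and 2 higher of 12 and a median of -0.24, and of the 4 B cell markers tested 2 were lower and 2 higher, with a median of -0.16. Of the 46 NK lineage genes used for scaling, 40 were higher and 2 lower, with a median of 0.50.

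Among 8574 genes of at least 10 CPM, those whose pattern over the 4 libraries lay nearest to Bcl2a1b were Adam9, Cass4 and P4ha1, at distances of 0.0458, 0.0557 and 0.0614 between centred log2 CPM profiles. Their log2 fold changes were -0.84, -0.79 and -0.82. Nearest to Bcl2 were Slc9a7, Mylip and St3gal6, at distances of 0.0302, 0.0351 and 0.0431 and with log2 fold changes of 0.82, 0.77 and 0.76.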
